A study of Trichechus manatus latirostris with 11 samples.

Results

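Genes of apoptosis and related cell death were examined in the blood of Florida manatees (Trichechus manatus latirostris) with and without red tide illness. A list of 47 gene symbols was searched among 15298 rows of the deposited expression table, each row being a RefSeq transcript record, and 23 of the 47 genes were found, in 25 rows. CASP8 and AIFM1 each had 2 records. The remaining 24 genes were matched to no row and are not analysed here. They comprised the survival genes BCL2L2 and BCL2A1, the effectors BAX and BOK, the BH3-only genes BCL2L11, BID, BIK, BMF, BBC3 and BAD, the initiator CASP9 with its partners APAF1 and CYCS, all 4 listed death receptors (FAS, TNFRSF1A, TNFRSF1B and TNFRSF10B), the necroptosis genes RIPK3 and MLKL, the inhibitors XIAP and BIRC3, the nuclease DFFB, and the p53-related genes MDM2 and TP53INP1.

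RNA was sequenced from the buffy coat, the layer of white blood cells and platelets in centrifuged blood, of 4 red tide animals and 7 control animals. All were adults. The red tide animals were under treatment for the illness, which is caused by brevetoxins of a marine alga, at Lowry Park Zoo (ZooTampa). Some of them were sampled on arrival and others after a week of care, so they were not a uniform group. Among the controls, 2 free-ranging animals came from Brevard County, 4 were caught in Crystal River, and 1 was at the zoo with a resolving pneumonia. By the paper's account, 1 animal of each group was female. Illness, place of sampling, zoo care and, in the paper's account, date of sampling and freezing of the red tide buffy coats differed between the groups. Their contributions therefore cannot be told apart. In a mixed cell sample, fewer cells of a type and less RNA per cell cannot be told apart either.

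The table gives normalized counts (reads divided by a size factor for the depth of each library) as group means, without values of single animals and without group names on its columns. In all rows the overall mean of 11 libraries was the weighted mean of a first column that averages 4 libraries and a second that averages 7, which are the numbers of red tide and control animals. The table's stored name lists red tide before a set of 7, in the order of its columns. The paper, however, treats the ratio of the second column to the first as the change in the red tide animals, which is the opposite assignment. By the numbers of libraries and the stored name, the 4-library mean is that of the red tide animals, and the paper's direction conflicts with this. The conflict could not be resolved from the sources used here. Each mean is called by how many libraries it averages, and no direction is given with respect to illness. Each mean is a sum of whole reads, so the reads of single libraries could be recovered where only 1 combination of reads gave the deposited mean. For 16 of the 25 rows this held in the 4 libraries (mean up to 80), and for 4 rows in all 11 (7-library mean up to 6). The size factors were 1.56, 1.03, 0.620 and 0.372 for the 4 libraries, and single values are given in that order. Those of the 7 libraries were between 0.702 and 1.73. A recovered library is not linked to an animal.

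Apoptosis is an orderly form of cell death carried out by proteases called caspases. In the mitochondrial route, BH3-only proteins and BAX-like effectors are held in check by BCL2-like survival proteins, and in the receptor route death ligands act through adaptors such as FADD to engage caspase 8. IAP proteins and c-FLIP restrain caspases, p53 transcribes several of the genes that start the process, and short-lived white blood cells such as neutrophils are removed largely by apoptosis.

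Across the 25 rows, 4 were at least 2-fold higher in the 4-library mean (CDKN1A, PMAIP1, BCL2L1 and MCL1) and 5 rows of 4 genes were at least 2-fold higher in the 7-library mean (both CASP8 records, FASLG, CASP2 and FADD). The 4 rows were 16% of the cell death rows, beside 23.9% of all rows past the same threshold in that direction. The 5 rows were 20%, beside 10.4% of all rows. The other 16 rows were under 2-fold. In 18 rows the 7-library mean exceeded the other and in 7 rows it was below, and the median log2 ratio (4-library mean over 7-library mean) was -0.36 against 0.14 over all rows. Among the 20 cell death rows with an overall mean of at least 10, 3 were at least 2-fold higher in the 4-library mean (15%, beside 12.3% of all such rows) and 2 in the 7-library mean (10%, beside 9.59%).

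**Figure D1:**
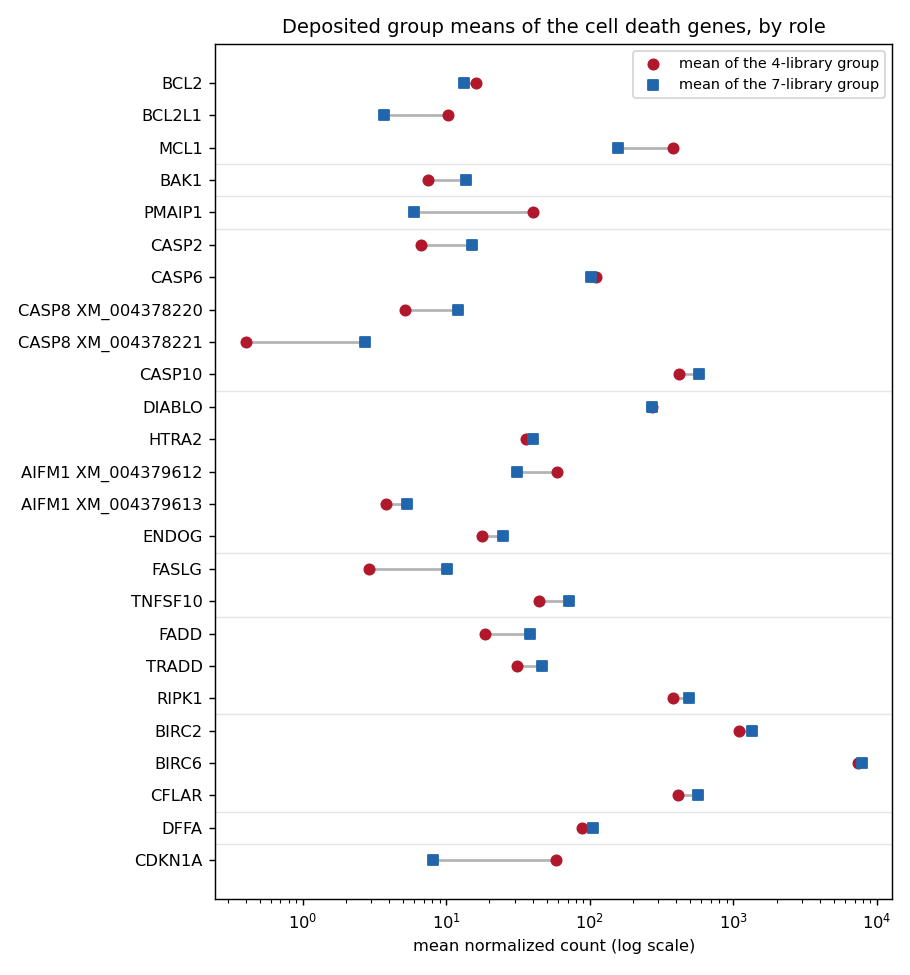
Deposited mean normalized counts of the 25 cell death rows on a log axis, with a circle for the 4-library mean, a square for the 7-library mean and grey lines between roles. The circle lies far to the right of the square for CDKN1A (58.4 and 8.10) and PMAIP1 (39.9 and 5.96), and far to its left for CASP8 XM_004378221 (0.403 and 2.73).

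**Figure D2:**
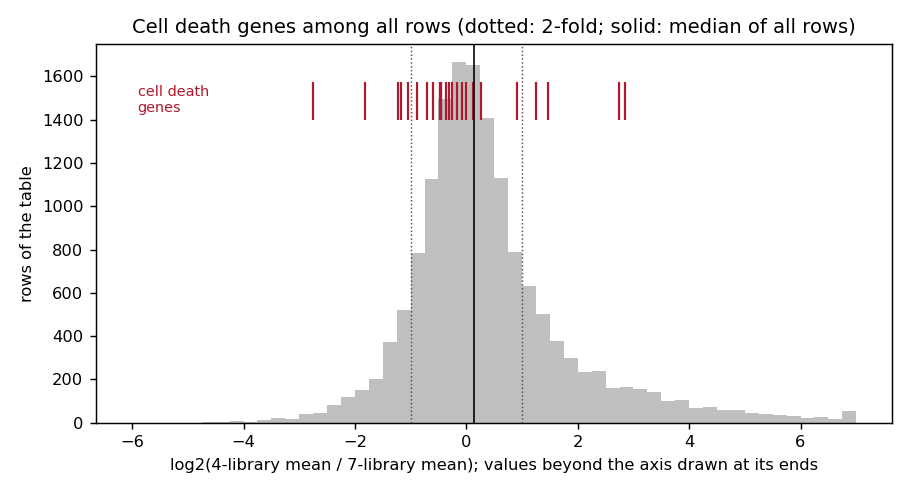
Number of rows (grey bars) by log2 ratio of the 4-library to the 7-library mean over all 15298 rows of the table, with the 25 cell death rows as red ticks and dotted lines at 2-fold. The median of all rows is 0.14 and that of the cell death rows is -0.36.

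The spread among the 4 libraries was set against the 7-library mean in the 16 rows with recovered reads. All 4 libraries were above that mean in 4 rows (PMAIP1, CDKN1A, BCL2L1 and AIFM1 XM_004379612.1), which is 25% beside 10.1% of all rows with such reads. All 4 were below it in 7 rows (BAK1, CASP2, CASP8 XM_004378221.1, FASLG, TNFSF10, FADD and TRADD), which is 43.75% beside 17.3%. In the remaining 5 rows the 4 libraries lay on both sides. The shares over all rows include rows of very few reads, among them 272 with 1 read in the 4 libraries together. In such rows all 4 cannot lie above the mean. No share over rows of like mean was taken, so the contrast with all rows may reflect the level of the rows.

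**Figure D3:**
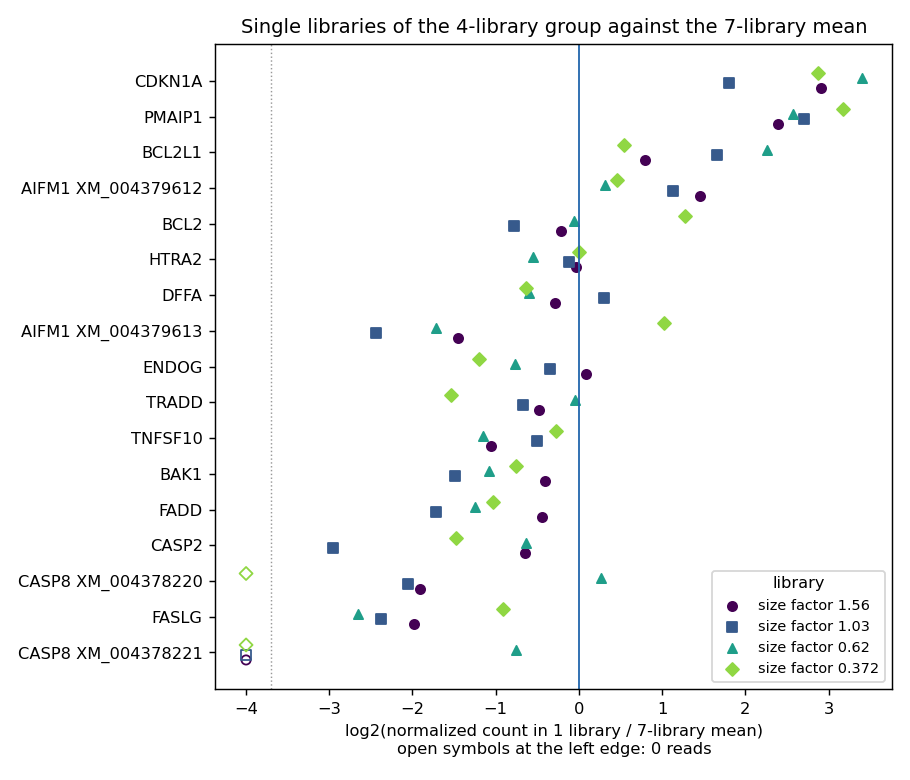
Log2 ratio of the normalized count in each library of the 4-library group to the 7-library mean, for the 16 rows with recovered reads and DFFA, with a symbol for each library and open symbols at the left edge for 0 reads. All 4 symbols lie to the right of 0 for CDKN1A, PMAIP1, BCL2L1 and AIFM1 XM_004379612, and all 4 lie to the left for 7 rows.

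Among the BCL2-like survival genes, all 3 with a row had the higher mean in the 4-library group, and BCL2L1 and MCL1 passed 2-fold. BCL2L1, which encodes the survival protein BCL-XL, had 10, 12, 11 and 2 reads in the 4 libraries, or normalized counts of 6.41, 11.7, 17.7 and 5.38. In the 7 libraries its normalized counts had a lowest value of 0.839, a median of 2.72 and a highest value of 7.68. The highest of the 7 libraries was thus above the lowest pair of the 4, and the groups overlapped. The means were 10.3 ± 5.67 (SD, n = 4) and 3.71 ± 2.40 (SD, n = 7), a 2.78-fold difference. The exact two-sided permutation test over the 330 ways to choose 4 of 11 libraries gave p = 0.0364 for BCL2L1, and the Benjamini-Hochberg adjusted p over the 4441 rows with reads of all 11 libraries was 0.326.

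MCL1, a short-lived survival protein on which neutrophils depend, had means of 379 over the 4 libraries and 158 over the 7. This is a 2.39-fold difference without a check on single libraries, since its reads could not be recovered. BCL2 itself had 11.5, 7.79, 12.9 and 32.3 in the 4 libraries, with means of 16.1 ± 10.98 (SD, n = 4) and 13.4, so that only the library of size factor 0.372 was above the 7-library mean. BAK1, the only BAX-like effector with a row, permeabilizes the outer mitochondrial membrane. Its normalized counts of 10.3, 4.87, 6.45 and 8.07 were all below the 7-library mean of 13.7, and the 4-library mean was 7.41 ± 2.31 (SD, n = 4), which made the 7-library mean 1.84-fold higher.

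PMAIP1, which encodes NOXA, a p53-induced BH3-only protein that binds MCL1, was the only BH3-only gene with a row. It had 49, 40, 22 and 20 reads in the 4 libraries, or normalized counts of 31.4, 38.9, 35.5 and 53.8. The 7 libraries had a lowest value of 1.81, a median of 4.52 and a highest value of 13.4. Each of the 4 libraries was above each of the 7, a lack of overlap that was seen in 2.79% of the 4441 rows. Mean normalized counts were 39.9 ± 9.76 (SD, n = 4) and 5.96 ± 4.11 (SD, n = 7), 6.69-fold apart. The exact permutation test gave p = 0.00606, the smallest that this design allows, and the adjusted p was 0.212.

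CDKN1A, the p53 target encoding the cell cycle inhibitor p21, had the largest ratio of the 25 rows in favour of the 4-library mean. Its 95, 29, 53 and 22 reads correspond to normalized counts of 60.9, 28.2, 85.4 and 59.2, with a mean of 58.4 ± 23.4 (SD, n = 4) against 8.10 in the 7 libraries, a 7.21-fold difference. For the 7 libraries 2 combinations of reads gave the deposited mean. Under one of them the highest of the 7 libraries was at 19.6, below each of the 4, and the exact permutation p was 0.00606. Under the other, a single library was at 43.1 and the next at 3.47, so that 3 of the 4 libraries were above all 7, and p was 0.0121. The 7-library mean of CDKN1A lay above the limit of 6, so this row was not among the 4441 tested rows. With its p added to theirs, the adjusted p was 0.210 under the first and 0.265 under the second. Without the library at 43.1, the log2 ratio of 2.85 became 4.69 under the second combination.

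**Figure D4:**
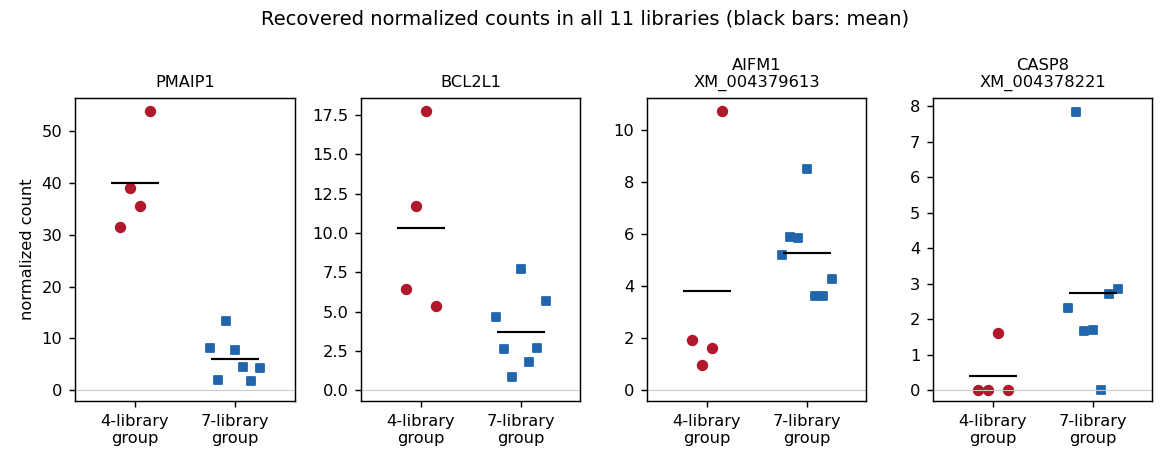
Normalized counts in every library of both groups for the 4 cell death rows with reads recovered in all 11 libraries (points: libraries; black bars: group means). For PMAIP1 the lowest of the 4 libraries is at 31.4 and the highest of the 7 at 13.4, while the groups overlap for BCL2L1 and both other records.

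The row set that this test could use requires a 7-library mean of up to 6, which favours rows that are higher in the 4-library mean. Of the 4441 rows, 661 had an exact permutation p under 0.05 (14.9%), 635 of them higher in the 4-library mean, and 3 of the 4 cell death rows did. After adjustment, 0 of the 4441 rows were under 0.05, and the same held on the log2 scale, where 640 rows had an unadjusted p under 0.05.

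Of the 5 caspase rows, 4 had the higher mean in the 7-library group. CASP8 encodes the initiator that death receptors engage, and it had 2 records, whose reads the counting may have divided between them. The record XM_004378220.1 had normalized counts of 3.21, 2.92, 14.5 and 0 in the 4 libraries and a mean of 5.16 ± 6.40 (SD, n = 4), against 12.1 in the 7 libraries. Its 2.34-fold difference depended on single libraries: the library of size factor 0.620 was above the 7-library mean, and the log2 ratio of -1.23 became -2.56 without it, while it became -0.81, under 2-fold, without the library of size factor 0.372.

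The record XM_004378221.1 had 1 read in the 4 libraries together, in the library of size factor 0.620, and 25 reads in the 7 libraries. The normalized counts of the 7 libraries ran from 0 over a median of 2.31 to 7.84. The 7-library mean of 2.73 ± 2.45 (SD, n = 7) was 6.77-fold the 4-library mean of 0.403, with exact 95% limits of 1.11 and 278 from the counts of both groups, which cover counting error only. The exact permutation p was 0.0303, and the adjusted p was 0.326. With both records summed, CASP8 had means of 5.56 and 14.8, and the 7-library mean was 2.66-fold higher.

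CASP2, an initiator-type caspase linked to DNA damage and mitotic stress, had normalized counts of 9.62, 1.95, 9.67 and 5.38 in the 4 libraries. All were below the 7-library mean of 15.04, which was 2.26-fold the 4-library mean of 6.65 ± 3.73 (SD, n = 4). Without the library of size factor 1.03 its log2 ratio of -1.18 became -0.87, which is under 2-fold. CASP10, a relative of CASP8, had means of 419 in the 4-library and 572 in the 7-library group (log2 ratio -0.45). CASP6, an executioner caspase, had means of 110 and 102 (log2 ratio 0.11), the only caspase row in which the 4-library mean was above the other.

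The 4 genes of mitochondrial factors were all under 2-fold apart. DIABLO, whose product relieves caspases from IAP proteins, had means of 272 in both groups. HTRA2, a mitochondrial protease with a like action, had 39.1, 37.0, 27.4 and 40.4 in the 4 libraries, with a mean of 36.0 ± 5.88 (SD, n = 4) against 40.2. ENDOG, a mitochondrial nuclease, had 26.3, 19.5, 14.5 and 10.8, with a mean of 17.8 ± 6.72 (SD, n = 4) against 24.8 in the 7 libraries.

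AIFM1, a mitochondrial flavoprotein that can move to the nucleus in caspase-independent death, had records that differed in direction. In XM_004379612.1 the 4 libraries had normalized counts of 85.3, 68.1, 38.7 and 43.0, all above the 7-library mean of 31.2, and their mean was 58.8 ± 21.9 (SD, n = 4), a 1.88-fold difference. In XM_004379613.1 they had 1.92, 0.974, 1.61 and 10.8, with a mean of 3.82 ± 4.65 (SD, n = 4). The 7 libraries ran from 3.61 over a median of 5.20 to 8.53 in that record, with a mean of 5.29 ± 1.73 (SD, n = 7). The library of size factor 0.372 was above all 7, and the other 3 were below all 7. The exact permutation p of that record was 0.473 and the adjusted p was 0.792, and without that library the log2 ratio of -0.47 became -1.81. Summed over both records, AIFM1 had means of 62.6 and 36.5 (log2 ratio 0.78).

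The death ligands were both higher in the 7-library mean. FASLG, the ligand with which cytotoxic T and NK cells trigger the receptor FAS, had only 4, 2, 1 and 2 reads in the 4 libraries, or normalized counts of 2.57, 1.95, 1.61 and 5.38. All were below the 7-library mean of 10.1, which was 3.52-fold the 4-library mean of 2.88 ± 1.72 (SD, n = 4). For the 7 libraries 54 combinations of reads gave the mean. Across these the exact permutation p ran from 0.0121 to 0.4. The highest of the 7 libraries lay between 17.2 and 42.5, above each of the 4. The 7-library mean of FASLG was also above the limit of 6, so it was not among the 4441 tested rows. With its p added to theirs, the adjusted p ran from 0.265 to 0.725. With 1 of the 7 libraries left out, the log2 ratio of -1.82 ran from -2.04 to -0.72 across these combinations, so that in some of them a single library carried the difference past 2-fold. TNFSF10, the ligand TRAIL, had 34.6, 50.6, 32.2 and 59.2, all below the 7-library mean of 71.9, with a mean of 44.2 ± 12.9 (SD, n = 4), and the 7-library mean was 1.63-fold higher.

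The adaptors and the kinase that act below the receptors were also higher in the 7-library mean. FADD, the adaptor that joins death receptors to CASP8, had normalized counts of 28.2, 11.7, 16.1 and 18.8, all below the 7-library mean of 38.5. The 4-library mean was 18.7 ± 6.99 (SD, n = 4), so the difference was 2.05-fold, with a log2 ratio of -1.04 that became -0.87 without the library of size factor 1.03. TRADD, the adaptor of TNF receptor signalling, had 33.4, 29.2, 45.1 and 16.1, all below 46.7, with a mean of 31.0 ± 11.96 (SD, n = 4). RIPK1, a kinase that sorts receptor signals toward survival or death, had means of 382 in the 4-library and 490 in the 7-library group (log2 ratio -0.36).

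The inhibitors of caspases lay closer together. BIRC2, which encodes the ubiquitin ligase cIAP1, had means of 1088 in the 4-library and 1349 in the 7-library group (log2 ratio -0.31). BIRC6, a giant IAP protein, had means of 7426 and 7835 (log2 ratio -0.08). CFLAR, which encodes c-FLIP, the inhibitor of CASP8 activation, had means of 414 and 570 (log2 ratio -0.46). DFFA, the inhibitor of the nuclease that cuts DNA between nucleosomes, had 86.0, 129, 69.3 and 67.3 in the 4 libraries, with 1 of them above the 7-library mean of 105. The 4-library mean was 88.0 ± 28.9 (SD, n = 4). This mean lay above the limit of 80 and its reads were added after seeing the data.

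Other genes of the same pathways were described from lists of 77 cell death genes and 30 p53 targets. The 52 rows of 48 other cell death genes had 10 rows at least 2-fold higher in the 4-library mean and 8 in the 7-library mean. These are 19.2% and 15.4% of the list, beside 23.9% and 10.4% of all rows, and the median log2 ratio was 0.21. The 26 rows of 25 p53 targets had 11 rows at least 2-fold higher in the 4-library mean and 1 in the 7-library mean. These are 42.3% and 3.85% of the list, beside the same 23.9% and 10.4%. The median log2 ratio was 0.73, and 21 rows had the higher mean in the 4-library group.

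**Figure D5:**
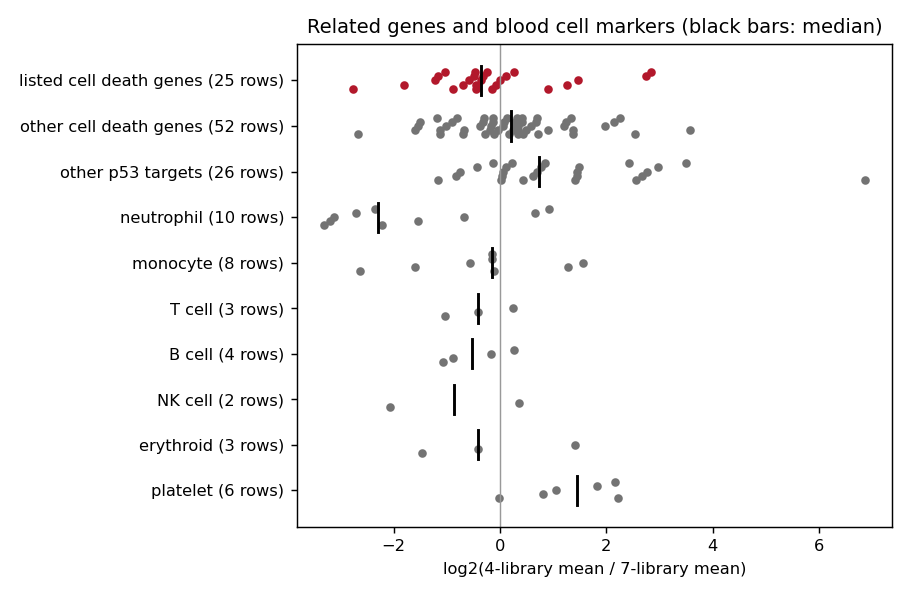
Log2 ratio (4-library mean over 7-library mean) of each row in the lists of cell death genes, p53 targets and blood cell markers, with the median of each list as a black bar. The median is 0.73 for other p53 targets, -2.29 for neutrophil and 1.44 for platelet markers.

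NAIP, an IAP-related sensor of bacterial proteins, had 23.1, 47.7, 32.2 and 16.1 in the 4 libraries, all below the 7-library mean of 189, which was 6.34-fold the 4-library mean of 29.8. In the other direction, MOAP1, which binds BAX, had means of 525 over the 4 libraries and 109 over the 7. PDCD4, a translation inhibitor, had 71.2, 60.4, 54.8 and 72.6 in the 4 libraries in its record XM_004374844.1, with means of 64.7 and 11.1, and means of 556 and 234 in its other record. LTA, a cytokine of the TNF family, rested on 5 reads in the 4 libraries and 2 in the 7, an 11.9-fold difference with exact 95% limits of 1.95 and 125 from both counts.

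Among the p53 targets, BTG2, an antiproliferative gene, had means of 6909 in the 4-library and 875 in the 7-library group. PLK2, a stress-induced kinase, had 46.2, 21.4, 16.1 and 13.5 in the 4 libraries, and the highest of the 7 libraries was at 7.12. GADD45G, a stress-response gene, had 16.0, 5.84, 19.3 and 2.69, and only 1 read in all 7 libraries, so that the 118-fold difference has exact 95% limits of 20.03 and 4748 from both counts. Each of the 4 libraries was above each of the 7 for PLK2, GADD45G and AEN, an apoptosis-enhancing nuclease that was chosen after its values were seen, out of 8 p53-list rows with reads of all 11 libraries. For each of these 3 rows the exact permutation p was 0.00606 and the adjusted p was 0.212. PLK2 and GADD45G were named for their fold in the same libraries, so that choice favoured a small p. The same lack of overlap was seen in 2.79% of the 4441 tested rows. Rows with reads of all 11 libraries need a 7-library mean of up to 6, which favours rows higher in the 4-library mean.

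Among the lists of blood cell markers, neutrophil and platelet markers had the largest median differences between the groups, in opposite directions. Beside the counts that follow, 23.9% of all rows were at least 2-fold higher in the 4-library mean and 10.4% in the 7-library mean. Of 16 neutrophil markers 10 had a row, and 7 of these rows were at least 2-fold higher in the 7-library mean and 0 in the 4-library mean. Their means summed to 5942 over the 4 libraries and 17901 over the 7, and the median log2 ratio was -2.29. The rows include MMP9, CXCR1 and CXCR2, named after their values were seen, which the paper places on the opposite side with respect to illness from that given by the column sizes. In the 4 neutrophil rows with recovered reads the sum was between 49.4 and 411 in the 4 libraries against a 7-library mean of 1746. Of 10 platelet markers 6 had a row, 4 of them at least 2-fold higher in the 4-library mean, with summed means of 15342 and 4512. In the 2 platelet rows with recovered reads the sum was between 59.2 and 330 in the 4 libraries against a 7-library mean of 59.7, and the library of size factor 0.620 had the highest sum of both kinds. The T cell, B cell and NK cell markers with a row (3, 4 and 2 rows) each had 1 row at least 2-fold higher in the 7-library mean and 0 in the 4-library mean. Their medians were -0.42, -0.52 and -0.86. The monocyte rows (8) had 2 in each direction and a median of -0.15, and the erythroid rows (3) had 1 in each direction and a median of -0.41. No marker row was at 0 in either group, but the same held for all 15298 rows, so this tells nothing about the markers. The part of the cell mixture in the values of the cell death genes was not tested.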

How the data were processed

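RNA-seq of buffy coat RNA (rRNA and globin depleted, paired-end) gave 1 deposited table. The authors trimmed reads with Cutadapt and aligned them to TriManLat1.0 with Bowtie2. Duplicates were dropped, and reads with a single mapping position were counted for each gene sequence. For the group comparison the authors ran DESeq through DEB. Scripts of a university core facility were used along with SAMtools. No annotation release is given in the sources used here. Each deposited value is a signal: counts divided by size factors, then averaged by the authors over all libraries or those of a group. The fold change, log2 fold change, p-value and adjusted p-value columns are the authors' own comparison and were not used.

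Symbols came from the RefSeq gene table of TriManLat1.0, matched by transcript record without version, for 10080 of 15298 rows (65.9%). Size factors were found from the smallest means, and reads were recovered where 1 combination of whole reads gave the mean to within 6e-10 below 10 and 6e-09 from 10 to 100, in 9632 of 9634 rows with a 4-library mean up to 80 and in 4459 of 4505 rows with a 7-library mean up to 6. Recovery was tested on simulated data. Tests were exact, two-sided permutation tests over all 330 divisions of 11 libraries into 4 and 7, with Benjamini-Hochberg adjustment (Python 3.11.15, numpy 2.4.6, scipy 1.17.1, pandas 2.3.3). Normalized counts are not per length, so levels were not compared between genes. The largest size factor was 4.66 times the smallest, and total reads per library cannot be had from the means. Reads were sequenced in pairs, so counting limits cover counting error only and would be wider. The p-values measure the spread between libraries, which the labels do not tie to named animals. Genes were named if listed with a row. Values per library were to be printed for rows at least 2-fold apart, rows with reads of all 11 libraries and the highest row of each role, and those of the remaining recovered rows were added after seeing the data. Counting limits are exact 95% limits of the ratio of both counts, conditional on their sum. From the other lists, up to 3 rows per direction at least 4-fold apart were named. The genes, lists and tests were chosen with earlier results of these data known.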

Additional observations from a re-analysis of the deposited data

Results flagged for a closer look

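In 21 groups of 4 or 7 libraries with recovered reads, the highest or lowest library was compared with the rest by its gap over the range of the group, and 3 groups had a library apart from the others. The nominal rate by chance is about 1 in 20, which need not hold for counts of a few reads. Where only 1 library of a group has reads, its gap always equals the range. In CASP8 XM_004378221.1, the library of size factor 0.620 was at a normalized count of 1.61 and the other 3 of the 4-library group at 0, which is a difference of 1 read. In the same record, the library of size factor 1.53 was at 7.84 and the other 6 libraries of the 7-library group were between 0 and 2.85. In AIFM1 XM_004379613.1, the library of size factor 0.372 was at 10.8, from 4 reads, and the other 3 of the 4-library group were between 0.974 and 1.92.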

How the results depend on the processing

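Of 108 recomputed values, 95 were counted as unmoved and 13 as moved, and none turned direction. The limit was not the same for every kind of value, so these counts are a rough guide only. The median log2 ratio counted as moved from -0.36 to -0.31. The exact permutation p of AIFM1 XM_004379613.1 counted as unmoved from 0.473 to 0.145 on the log2 scale. The count of rows at least 2-fold higher in the 4-library mean was 4, and 2 at a threshold of 4-fold. The count in the 7-library mean was 5, and 8 at 1.5-fold, 1 at 4-fold and 2 with an overall mean of at least 10. Among rows with recovered reads it ran from 3 to 6 with 1 of the 4 libraries left out, the lowest without the library of size factor 1.03, and the 4-library count ran from 3 to 4. The median log2 ratio of -0.36 became -0.28 with a mean of at least 10, -0.50 when centred on all rows, and -0.31 with 1 row per symbol or with records summed, the last chosen after seeing the data. With recovery limits of 40 and 3, 2 rows in place of 4 had all 4 libraries above the 7-library mean, which leaves fewer rows to count. Leaving out any 1 of 11 libraries, the log2 ratio ran from 2.56 to 3.08 for PMAIP1, 1.08 to 1.76 for BCL2L1 and -1.81 to -0.15 for AIFM1 XM_004379613.1. Without each of the 4 libraries only, it ran from 2.61 to 3.08 for CDKN1A, -2.31 to -1.62 for FASLG and -2.56 to -0.81 for CASP8 XM_004378220.1. Without each of the 7, under every read combination and chosen after seeing the data, it ran from 2.63 to 4.69 for CDKN1A and -2.04 to -0.72 for FASLG. For CASP8 XM_004378221.1, leaving out the library of size factor 0.620 leaves 0 reads in the 4-library group, so no ratio was formed.

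No paired analysis was possible because the table holds group means, and recovered libraries carry no replicate number. Promoter motifs were not analysed here. Size factors bound what weak rows can show, since 1 read in the library of size factor 0.372 weighs 4.66 times as much as in the deepest library.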
